A study of Mus musculus with 69 samples.

Results

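Chemokines that direct the cells of type 2 and lymphoid immunity were examined in mouse lung after instillation of titanium dioxide nanoparticles. The group consisted of 8 genes chosen by symbol, the ligands Ccl17, Ccl22, Ccl20, Ccl19, Cxcl13, Ccl11 and Ccl24 and the receptor Ccr7, out of 17628 genes that were measured. Members were found through the transcript identifiers of the array probes, and all 8 were matched, by 10 probes in all.

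The lungs came from 69 female C57BL/6 mice, 1 mouse per array, that were 5 to 7 weeks old on arrival and were acclimatised for 1 to 3 weeks. Each mouse received 1 intratracheal instillation of 18, 54 or 162 µg of NRCWE-001 (no charge, called Umodificeret in the labels) or of NRCWE-002 (positively charged, called Modificeret), or the vehicle alone, and was examined on day 1 or day 28. The vehicle, named Negativ control (H2O) in the labels, was water with 2% serum. Of the 14 groups 13 had 5 mice each, and the vehicle lungs of day 28 numbered 4. Both particles were compared with the same vehicle mice of a day, so their changes share those arrays.

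Chemokines are small secreted proteins that guide leukocytes along a gradient through receptors on the cell surface. CCL17 and CCL22 are ligands of CCR4, found on type 2 helper and regulatory T cells, and their genes are induced by interleukin 4 through the transcription factor STAT6. CCL11 and CCL24 are eotaxins, which attract eosinophils through CCR3, and CCL24 is made by alternatively activated macrophages. CCL20 is made by airway epithelium and draws dendritic cells and lymphocytes through CCR6. CCL19 and CXCL13 are the homeostatic chemokines of lymphoid tissue. The first places T cells and mature dendritic cells through CCR7, and the second places B cells in follicles through CXCR5.

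All values below are log2 ratios of lung RNA to a common reference RNA, given as mean ± SD over mice. A level describes a gene against the reference on its own probe, so levels were compared between groups and not between genes. A change is a log2 difference from the vehicle of the same day with its standard error, and it was called at an adjusted p below 0.05 (limma, Benjamini-Hochberg over 17628 genes). In whole lung, more RNA per cell and more cells of a type cannot be told apart. The defining genes of lung epithelium were abundant on nearly all arrays, with Sftpc and Scgb1a1 well above background on 69 of 69 arrays. Between arrays, 61.4% to 87.8% of spots were well above background in the lung channel, and pairs of arrays correlated at 0.778 to 0.991 across genes. Arrays were printed on 18 slides. Slides took 28.4% (Ccl24) to 69.6% (Ccr7) of the variance of a member within groups, beside 61.6% for the median gene and 30.9% of the residual degrees of freedom.

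Detection set what could be seen of each member. Ccl17, Ccl24, Ccl19, Ccl11, Cxcl13 and Ccr7 were well above background in lung RNA on 69 of 69 arrays. Ccl20 was above background on 41 of 69 arrays, and Ccl22 on 4 of 69, the smallest number the filter allowed. In the reference RNA, Cxcl13 was above background on 1 array, Ccl22 on 7, Ccl11 on 10 and Ccl20 on 14. The ratios of these 4 genes have a denominator near background, and an offset of 50 added to the signals compresses changes of dim probes.

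The sequences before the start sites of Ccl17, Ccl22 and Ccl20 are shown because Ccl17 was the member that changed most clearly, Ccl22 is its neighbour with the same receptor, and Ccl20 came next after Ccl17 on day 1. Each is 250 bases that precede the start given in the RefSeq promoter table (GRCm38.p6), on the plus strand, 5′ to 3′. Ccl17 is shown at chr8:94810203-94810452, Ccl22 at chr8:94745434-94745683 and Ccl20 at chr1:83116516-83116765. The Ccl17 window belongs to a start inside the annotated gene, which begins upstream of it at position 94809380 of chromosome 8. Capitals mark matches to a STAT6-type motif (TTCNNNNGAA) or an NF-kB-type motif (GGGNNNNNCC, either strand).
Ccl17: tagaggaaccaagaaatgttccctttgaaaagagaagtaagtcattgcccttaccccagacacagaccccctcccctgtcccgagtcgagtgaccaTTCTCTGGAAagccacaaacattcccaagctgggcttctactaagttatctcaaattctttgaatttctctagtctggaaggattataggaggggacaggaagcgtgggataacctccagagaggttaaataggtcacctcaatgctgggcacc
Ccl22: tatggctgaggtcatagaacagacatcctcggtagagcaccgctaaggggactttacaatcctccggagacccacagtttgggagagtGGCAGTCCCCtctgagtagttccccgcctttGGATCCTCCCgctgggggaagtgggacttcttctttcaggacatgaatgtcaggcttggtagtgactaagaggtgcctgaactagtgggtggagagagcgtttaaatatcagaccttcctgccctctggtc
Ccl20: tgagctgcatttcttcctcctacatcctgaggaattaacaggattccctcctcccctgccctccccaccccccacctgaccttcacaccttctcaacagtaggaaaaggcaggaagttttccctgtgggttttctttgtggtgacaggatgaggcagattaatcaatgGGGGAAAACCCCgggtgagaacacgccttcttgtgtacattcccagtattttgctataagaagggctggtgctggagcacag
The Ccl17 window held 1 STAT6-type match, TTCTCTGGAA, at position -154 from the start, and no NF-kB-type match. The Ccl22 window held no STAT6-type match and 2 NF-kB-type matches. The Ccl20 window held 3 overlapping NF-kB-type matches within a single stretch, GGGGAAAACCCC. Among 32851 promoters of this length, 5.85% held the STAT6-type letters and 45.8% the NF-kB-type letters. An AP-1-type motif (TGANTCA), found in 6.75% of promoters, was searched as well and occurred in none of the 5 members that had an entry. The entries of Ccl19 and Cxcl13 held 1 NF-kB-type match each. These matches describe letters in a window and not binding.

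Ccl17 rose on day 1 at the highest dose of the charged particle, in a test that depended on the background correction. In the 5 vehicle lungs of day 1 its log2 ratios were 1.31, 1.58, 1.77, 1.91 and 2.43. In the 5 lungs at 162 µg of NRCWE-002 they were 2.74, 3.47, 3.72, 3.83 and 4.00. The groups did not overlap, and the lowest exposed lung was above the highest vehicle lung. The mean went from 1.80 ± 0.42 to 3.55 ± 0.49, a change of 1.75 ± 0.43 or 3.37-fold (adjusted p = 0.0325). Of all genes, 0.596% were called in this comparison, and Ccl17, at rank 70 by p, was the 1 called member of 8. On the log2 ratios the authors deposited, the change of Ccl17 was 1.80 (adjusted p = 0.0329).

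The increase of Ccl17 stood close to the threshold. The background correction left out spots of high local background when its curve was fitted, a step chosen with the data in view. With the curve fitted on all spots the change was the same 1.75, but it was not called (adjusted p = 0.202), nor was it on the scanner software's processed signals (1.75, adjusted p = 0.0529). It was called without any background correction. With 1 array left out at a time, the change ran from 1.63 to 1.96 in 10 fits. The call was lost in 8 of them, at adjusted p-values of 0.0651 to 0.112, namely without vehicle replicate 2, 3, 4 or 5 or exposed replicate 1, 2, 3 or 4. A fit that blocked on slide gave 1.97 (adjusted p = 0.0200), and 1.96% of all genes and 1 of 8 members were called in it. On the 2 slides that carried both a vehicle lung and a lung at this dose, the exposed lung was higher by 2.06 and by 2.42.

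At 54 µg of NRCWE-002 on day 1, Ccl17 was 2.85, 2.97, 3.04, 3.41 and 3.42, so that all 5 exposed lungs again lay above all vehicle lungs. The change of 1.34 ± 0.43 did not pass the test (adjusted p = 0.393), and it did with slide as a block, at 1.94 (adjusted p = 0.0117). Of all genes 0.0624%, and 0 of 8 members, were called, and with the block 1.37% and 1 of 8. At this dose 1.70% of all genes, and 1 of 8 members, were higher without overlap. At 18 µg the 5 values ran from 1.54 to 2.42, within the vehicle range (change 0.08 ± 0.43). The dose effect of NRCWE-002 on day 1, tested over the 3 doses together, was called for Ccl17 (adjusted p = 0.0192), beside 0.823% of all genes.

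Ccl17 was less uniform after the uncharged particle. On day 1 the 5 lungs at 162 µg of NRCWE-001 were 1.49, 3.40, 3.40, 3.67 and 4.12. Of these lungs, 4 lay above all vehicle lungs and 1, replicate 5, lay among them. The change of 1.41 ± 0.43 did not pass (adjusted p = 0.144), and 0.579% of all genes and 0 of 8 members were called. Without replicate 5, the lung that went against the change, the change was 1.84 (adjusted p = 0.00732). That fit called 290 of all genes, beside 102 with all arrays. With slide as a block and all arrays the change was 1.71 (adjusted p = 0.0103). The block called 4.38% of all genes. On the 3 slides that held both groups the exposed lung was higher by 1.24 to 2.21.

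The same lung, replicate 5 at 162 µg of NRCWE-001, was also the lowest of its group in 6 of 8 members. Its list of 8 neutrophil genes averaged 1.42, the lowest of its group, whose other lungs ran from 1.64 to 2.48, while vehicle lungs ran from 1.24 to 1.83. Its share of spots above background was 68.1%, close to the median array. Ccl17 at 54 µg of NRCWE-001 was divided as well, with 1.13 and 1.30 in 2 lungs and 2.67, 2.85 and 3.63 in the other 3 (change 0.52 ± 0.43). The lung at 1.13 was on the same slide as replicate 5 at 162 µg, and neither that slide nor the slide of the lung at 1.30 carried a vehicle lung, so the part of the slide in these low values was not tested.

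On day 28 Ccl17 was near the vehicle level at the highest dose. The 4 vehicle lungs were 1.41, 1.48, 1.76 and 1.93. At 162 µg the range was 1.63 to 2.51 for NRCWE-001 (change 0.38 ± 0.45) and 1.21 to 2.01 for NRCWE-002 (change -0.02 ± 0.45). The effect of 162 µg of NRCWE-002 on day 28 minus that on day 1 was -1.77 ± 0.62, a difference that did not pass the test (adjusted p = 0.578), in a comparison with 0 genes called. The lungs with the highest Ccl17 on day 28 were 2 at 18 µg of NRCWE-002, at 4.67 and 3.66, and 1 at 18 µg of NRCWE-001, at 3.62.

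**Figure D1:**
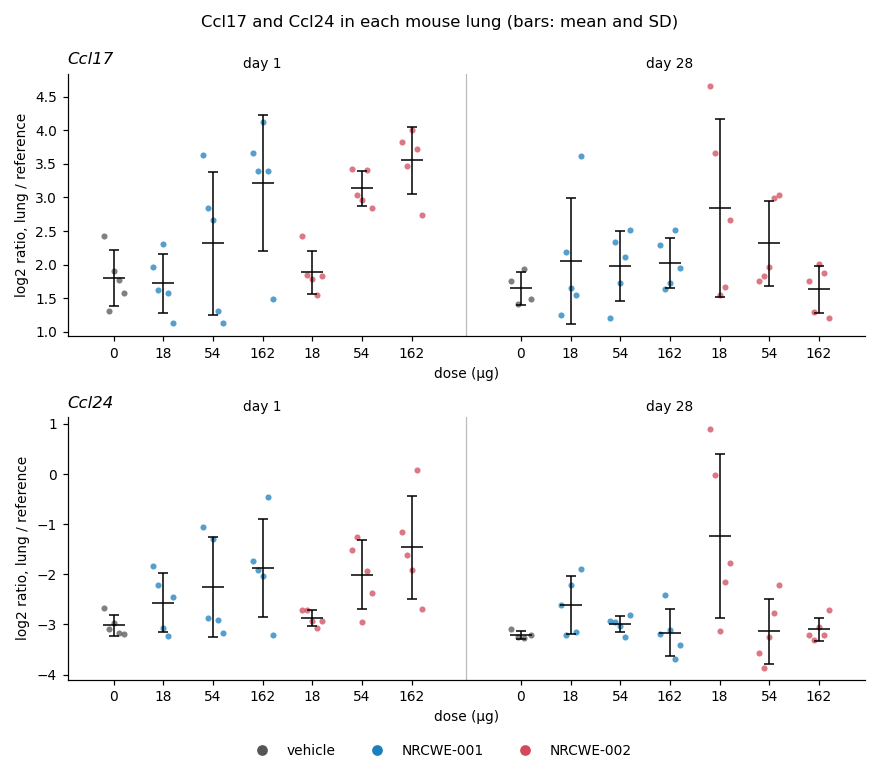
Log2 ratio of lung to reference RNA for Ccl17 (top) and Ccl24 (bottom) in each of 69 lungs, by dose in µg, with day 1 on the left and day 28 on the right. Each point is 1 mouse, coloured by particle, and bars are mean and SD. Ccl17 at 54 and 162 µg of NRCWE-002 on day 1 lies above all vehicle lungs, and at 18 µg of NRCWE-002 on day 28 both genes spread from the vehicle level to the highest values of the series.

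Ccl22, the other CCR4 ligand, stayed at background. Its log2 ratios ran from -0.07 to 0.23 in vehicle lungs of day 1 and from -0.09 to 0.33 at 162 µg of NRCWE-002. The change was 0.02 ± 0.07, with an interval of -0.13 to 0.17. Because the probe was well above background on 4 of 69 arrays, these intervals describe the probe and set no limit on the transcript.

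Ccl20, the CCR6 ligand of airway epithelium, was higher in every lung at 162 µg of NRCWE-002 on day 1 than in any vehicle lung, although its test fell short of the threshold. Vehicle lungs were -0.04, -0.03, -0.01, 0.01 and 0.11, and exposed lungs were 0.47, 0.49, 0.61, 0.64 and 1.38. The probe was well above background in 0 of 5 vehicle lungs and in 5 of 5 exposed lungs. In the lung channel the mean log2 signal was 6.97 in exposed and 6.21 in vehicle lungs, a 1.70-fold ratio. The vehicle signal in this ratio was not above background. The change of the ratio was 0.71 ± 0.19 (adjusted p = 0.0574).

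The call of Ccl20 depended on how background was treated, on the probe filter and on the fit. On the authors' deposited ratios the change was 0.94 (adjusted p = 0.0335), and Ccl20 was then called together with Ccl17. On the scanner software's processed signals, which subtract background, it was 3.76 (adjusted p = 0.0155). With the main background correction Ccl20 was called with probes filtered at 35 arrays and with slide as a random block (adjusted p = 0.0491 and 0.0302). It was also called with scan day as a block and in a fit of that day alone (adjusted p = 0.0288 and 0.025). These 4 fits called 109, 512, 787 and 480 of all genes. In 5 of 12 alternatives, slide as a fixed block among them, Ccl20 was not called. On day 1 the count of lungs with Ccl20 above background was 1, 4 and 5 of 5 at 18, 54 and 162 µg of NRCWE-002, and 3, 3 and 4 of 5 for NRCWE-001. The change at 162 µg of NRCWE-001 was 0.44 ± 0.19 (adjusted p = 0.532). On day 28 at 162 µg of NRCWE-002, 3 lungs stood at 0.80, 0.85 and 0.87 and the other 2 at -0.06 and 0.01, against vehicle lungs of -0.22 to 0.04 (change 0.57 ± 0.20, adjusted p = 0.577).

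Of the eotaxins, Ccl24 had the larger shifts and the larger spread. Vehicle lungs of day 1 were -3.18, -3.16, -3.10, -2.98 and -2.67. Lungs at 162 µg of NRCWE-002 were -2.69, -1.92, -1.62, -1.16 and 0.08, and 4 of these 5 lay above all vehicle lungs. The change was 1.56 ± 0.46 (adjusted p = 0.111). For NRCWE-001 at the same dose it was 1.15 ± 0.46 (adjusted p = 0.448), where 4 lungs lay above all vehicle lungs and 1, replicate 5 again, lay below them. The 2 probes of Ccl24 correlated at 0.958 over 69 arrays and differed in size, with changes of 1.19 and 1.93 at 162 µg of NRCWE-002.

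Ccl11 moved by less, with little spread on day 1. Vehicle lungs were 0.26, 0.41, 0.45, 0.56 and 0.57, and lungs at 162 µg of NRCWE-002 were 0.60, 0.69, 0.92, 1.02 and 1.25. The groups did not overlap, by a margin of hundredths of a log2 unit. The change was 0.45 ± 0.19 (adjusted p = 0.416). At 18 µg of the same particle Ccl11 was 0.10, 0.10, 0.17, 0.26 and 0.39, of which 4 lay below all vehicle lungs (change -0.25 ± 0.19, adjusted p = 0.999).

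Markers of eosinophils, the cells that eotaxins attract, differed in detection. Of 7 genes measured, Epx and Il5ra were well above background on 4 arrays each, Prg3 on 11, Prg2 on 45, Ccr3 on 66, Ear6 on 67 and Siglecf on 69 of 69. The mean log2 ratio of the list ran from 0.27 to 0.51 in vehicle lungs of day 1, from 0.23 to 0.33 at 162 µg of NRCWE-002 and from 0.16 to 0.33 at 162 µg of NRCWE-001. Siglecf, which alveolar macrophages share with eosinophils, was the 1 gene of the list called at 162 µg of NRCWE-001, with a change of -0.92 ± 0.24 (adjusted p = 0.0498), and it was at -0.84 ± 0.24 for NRCWE-002 (adjusted p = 0.0867).

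Cxcl13, the B cell attractant of follicles, was low and tight in vehicle lungs of day 1, at 0.28, 0.30, 0.30, 0.35 and 0.55. Exposed lungs at 162 µg of NRCWE-002 were 0.65, 0.84, 1.20, 1.35 and 3.32, all above the vehicle lungs. The change of 1.12 ± 0.45 did not pass (adjusted p = 0.364), and 1 lung, replicate 2, stood far above the rest. After 162 µg of NRCWE-001 they were 0.38, 0.89, 1.02, 1.06 and 2.41, of which 4 were above all vehicle lungs (change 0.80 ± 0.45, adjusted p = 0.815).

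Ccl19 was present in all lungs, and its exposed and vehicle ranges met. On day 1 vehicle lungs ran from 2.99 to 3.52 and lungs at 162 µg from 3.39 to 4.33 for NRCWE-001 and from 3.37 to 4.85 for NRCWE-002. The changes were 0.57 ± 0.32 and 0.54 ± 0.32 (adjusted p = 0.824 and 0.682), and the first turned to -0.29 with the background curve fitted on all spots. On day 28 they were 0.82 ± 0.34 and 0.88 ± 0.34 (adjusted p = 0.438 and 0.626), with 3 of 5 and 4 of 5 lungs above all vehicle lungs. The 2 probes of Ccl19 correlated at 0.609, and on day 28 one gave changes of 0.57 and 0.67 and the other 1.06 and 1.09 for the 2 particles. Ccl19 has near-identical copies in the mouse genome that a probe may not separate.

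Ccr7, the receptor of CCL19 on naive and central memory T cells and mature dendritic cells, had on day 1 the smallest change at 162 µg of either particle among the 6 members detected on all arrays. Vehicle lungs were 1.84, 1.85, 1.90, 2.14 and 2.45. Lungs at 162 µg of NRCWE-002 were 2.20, 2.33, 2.44, 2.45 and 2.56, and 1 of them lay above all vehicle lungs. The change was 0.36 ± 0.25 (adjusted p = 0.767). Over 12 dose groups its changes ran from -0.31 at 18 µg of NRCWE-001 on day 28 to this value.

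**Figure D2:**
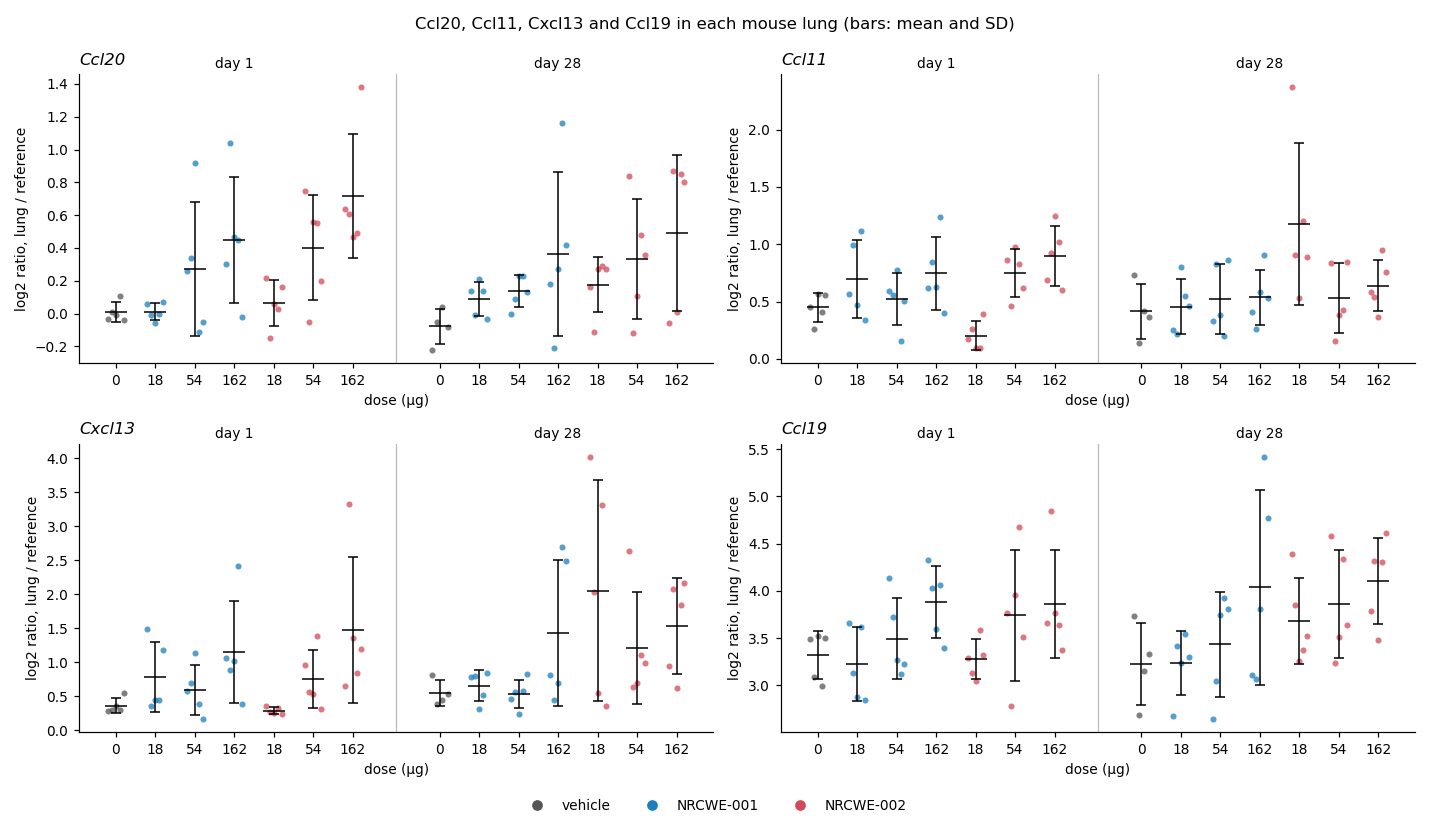
Log2 ratio of lung to reference RNA for Ccl20, Ccl11, Cxcl13 and Ccl19 in each lung, by dose in µg, with day 1 on the left and day 28 on the right of each panel. Points are mice coloured by particle and bars are mean and SD. On day 1 all lungs at 162 µg of NRCWE-002 lie above the vehicle lungs for Ccl20, Ccl11 and Cxcl13, and for Ccl19 the ranges meet.

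Taking the 8 members at 162 µg of NRCWE-002 on day 1, all 8 had a change above 0, beside 54.9% of all genes. This count includes Ccl22, at 0.02 with a probe at background, which turned to -0.01 on the deposited ratios and to -0.17 on processed signals. Of the 8, 4 (Ccl17, Ccl20, Cxcl13 and Ccl11) were higher in every exposed lung than in any vehicle lung, beside 3.55% of all genes. At an unadjusted p below 0.05, 5 of 8 were higher, beside 5.77% of all genes. The median change of the members was 0.63 and that of all genes was 0.01. For NRCWE-001 at this dose on day 1 all 8 members were above 0 again, beside 53.1% of genes, 0 of 8 were free of overlap beside 1.99%, and the median was 0.50. With the background curve fitted on all spots Ccl22, Ccl19 and Ccr7 were below 0 for NRCWE-001, at -0.01, -0.29 and -0.33. At an unadjusted p below 0.05, 3 of 8 were higher, beside 4.43% of genes.

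Among lungs of day 28, the group with the largest changes was the lowest dose of NRCWE-002. At 18 µg Ccl24 was -3.13, -2.15, -1.77, -0.02 and 0.90, against vehicle lungs of -3.27, -3.25, -3.20 and -3.09. The change was 1.97 ± 0.49, and 4 of 5 lungs lay above all vehicle lungs. By its unadjusted p of 0.000159 Ccl24 ranked 5 of 17628 genes, with an adjusted p of 0.520. In this comparison 0 genes were called, and 3.21% of all genes and 4 of 8 members were higher at an unadjusted p below 0.05 (limma).

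Ccl11, Cxcl13 and Ccl17 were the other 3. Ccl11 was 0.53, 0.89, 0.91, 1.20 and 2.37 against vehicle lungs of 0.14 to 0.73 (change 0.76 ± 0.20, adjusted p = 0.540). Cxcl13 was 0.35, 0.55, 2.03, 3.31 and 4.02 against 0.39 to 0.81 (change 1.51 ± 0.48, adjusted p = 0.705). Ccl17 was 1.55, 1.66, 2.67, 3.66 and 4.67 (change 1.20 ± 0.45, adjusted p = 0.720). In each gene the 5 lungs spread from the vehicle range to the top of the series.

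A single lung and a single slide weighed on this group. Replicate 1 was the highest lung of the group in 7 of 8 members, and without it the difference of means was 1.43 for Ccl24, 1.02 for Cxcl13, 0.74 for Ccl17 and 0.47 for Ccl11. Its slide also carried vehicle replicate 1, the highest vehicle lung of day 28 in 5 of 8 members. Against that vehicle lung, replicate 1 was higher by 3.99 for Ccl24 and by 3.21 for Cxcl13, whereas on the other shared slide replicate 3 was higher by 0.07 and 0.02. Without replicate 3, Ccl24 and Ccl11 were called, among 12 genes in all.

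Heart muscle genes were read in the same mice. The mean log2 ratio of 6 of them ran from 1.04 to 3.25 at 18 µg of NRCWE-002 on day 28 and from 0.49 to 2.55 in vehicle lungs, and 6 of 6 list genes were measured. The list at 162 µg of NRCWE-002 on day 28 ran from 1.96 to 3.48. The part of such tissue in the values of the members was not tested.

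At 54 and 162 µg of NRCWE-002 on day 28 Ccl24 was back at the vehicle level, with changes of 0.07 ± 0.49 and 0.11 ± 0.49. The dose effect of NRCWE-002 on day 28 had its lowest p among members in Ccl24 (unadjusted p = 9.32e-05, adjusted p = 0.217), and 0 genes were called. Cxcl13 kept values above the vehicle range at 162 µg, where 4 of 5 lungs at NRCWE-002, from 0.94 to 2.17, were above all vehicle lungs (change 0.98 ± 0.48, adjusted p = 0.725). In all, 0.0454% of genes were called at 162 µg of NRCWE-001 on day 28 and 0.00567% at 162 µg of NRCWE-002, with no member among them.

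**Figure D3:**
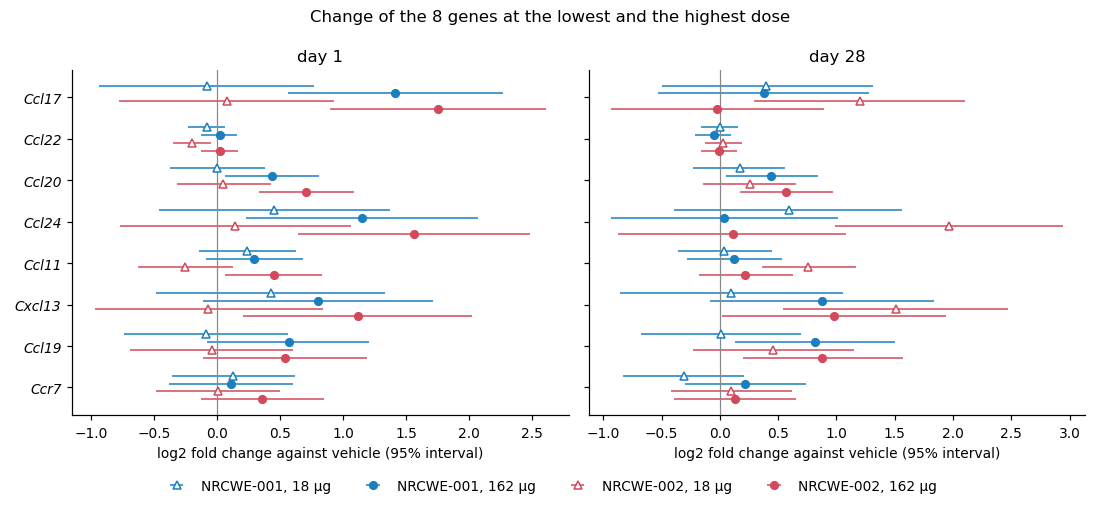
Log2 fold change against the vehicle of the same day, with its 95% interval from the fit across all genes, for the 8 genes at 18 µg (open triangles) and 162 µg (filled circles) of each particle on day 1 (left) and day 28 (right). On day 1 the 162 µg changes lie at or above 0 for all 8 genes, up to 1.75 for Ccl17. On day 28 the largest change is that of Ccl24 at 18 µg of NRCWE-002, 1.97.

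The particles were compared at matched doses and days, in 6 pairs of groups and in the mean over doses on each day, and no member was called in any of these 8 comparisons. Most slides carried only 1 of the particles on a given day. With slides numbered by barcode, only 8 and 10 held lungs of both particles on day 1, and only 9 and 11 on day 28. Differences between particles can therefore largely not be told apart from differences between slides. The share of all genes called was 0% at 18 µg and at 162 µg on day 1, 0.130% at 54 µg on day 1, 0.119% at 18 µg, 0.0284% at 54 µg and 0% at 162 µg on day 28, and 0.125% over the doses on day 1. At 18 µg on day 28, 9.08% of genes and 3 members (Ccl11, Cxcl13 and Ccl24) had an unadjusted p below 0.05. At 162 µg on day 1, NRCWE-002 exceeded NRCWE-001 by 0.34 for Ccl17, with an interval of -0.52 to 1.19, by 0.27 for Ccl20 (-0.10 to 0.65) and by 0.41 for Ccl24 (-0.51 to 1.33). The interval of Ccl17 ends below both of its changes from vehicle, 1.41 and 1.75, and still allows a difference of 1.19, so the particles were not shown to act alike. Over the 3 doses on day 28, Cxcl13 was higher after NRCWE-002 by 0.73 ± 0.26 (adjusted p = 0.0827) and Ccl11 by 0.28 ± 0.11 (adjusted p = 0.117), in a comparison where 4.75% of all genes were called. In the same comparison 3 of 7 receptors (Ccr6, Ccr2 and Cxcr5, the receptor of CXCL13) and 3 of 8 B cell genes (Ms4a1, Cd22 and Cd79b) were called as higher after NRCWE-002. Of the other lists, Ltb, Stat6, Ackr4 and the T cell gene Cd8a were called as higher (adjusted p from 0.012 to 0.0468). The thymus gene Dntt was called as lower (adjusted p = 0.0246). With slide as a block none of these list genes was called (adjusted p from 0.593 for Ccr6 to 0.992 for Dntt), and 0.0227% of all genes and 0 of 8 members were.

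At the lowest dose the direction of Ccl11 differed between days. On day 1 the difference of NRCWE-002 from NRCWE-001 at 18 µg was -0.49 ± 0.19 (adjusted p = 0.621). On day 28 it was 0.72 ± 0.19 (adjusted p = 0.123). No test was run of one day against the other here. The vehicle lungs of the 2 days did not differ for any member at the threshold, with changes from -0.18 for Ccl24 to 0.28 for Ccr7.

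The receptors of these ligands gave no call in the comparisons of dose with vehicle. Of 7 receptors measured, 0 rose and 0 fell at 162 µg of either particle on day 1, with median changes of -0.07 for NRCWE-001 and 0.05 for NRCWE-002. Ccr4, the receptor of CCL17, was at -0.07 ± 0.10 and -0.05 ± 0.10, and the arrays on which it was above background were not counted. Of the 4 receptors that take up chemokines without signalling, none was called against vehicle. At 162 µg of NRCWE-001 on day 28 Ackr4, which removes CCL19 and CCL20, was at -0.62 ± 0.18 (adjusted p = 0.192).

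Genes upstream of the type 2 chemokines gave no call at 162 µg on day 1. Of 15 genes of type 2 cytokines and their signalling 13 were measured, and 0 were called in either direction on day 1 at 162 µg. Il4, the cytokine that induces Ccl17, was at -0.01 ± 0.05 and 0.02 ± 0.05. Il13 was at -0.03 ± 0.07 and -0.11 ± 0.07, and the alarmin Il33 at 0.57 ± 0.25 and 0.79 ± 0.25 (adjusted p = 0.566 and 0.160), for NRCWE-001 and NRCWE-002. The arrays on which Il4 and Il13 were above background were not counted, so their values set no limit on these transcripts. Of 11 measured genes of lymphotoxin and B cell survival signalling none was called at 162 µg on day 1. Relb, a subunit of the noncanonical NF-kB pathway, had the lowest p, with 0.40 ± 0.16 and 0.50 ± 0.16.

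Other inflammatory chemokines, most of which attract neutrophils and monocytes, had larger median changes. Of 20 such genes 19 were measured, and their median change at 162 µg on day 1 was 0.72 for NRCWE-001 and 0.85 for NRCWE-002. After NRCWE-002, 2 of the 19 rose, the neutrophil attractants Cxcl5 (3.49 ± 0.78, adjusted p = 0.0166) and Cxcl3 (0.85 ± 0.19, adjusted p = 0.0193). With slide as a block Cxcl3 was not called (adjusted p = 0.0683). Ccl2 and Ccl7, which recruit monocytes, were at 2.00 ± 0.53 and 2.14 ± 0.56 (adjusted p = 0.0574 and 0.0564). Of 7 related ligands measured, Cxcl12 rose (0.68 ± 0.16, adjusted p = 0.0211), and Ccl21a, the other CCR7 ligand, was at -0.07 ± 0.16.

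Marker genes of the cells that make or follow these chemokines were read beside them. In the vehicle lungs of day 1 the mean of 8 neutrophil genes ran from 1.24 to 1.83, and at 162 µg from 1.42 to 2.48 for NRCWE-001 and from 1.54 to 2.04 for NRCWE-002. Of these 8, Csf3r and Cxcr2 rose after NRCWE-001, by 0.80 ± 0.19 and 0.69 ± 0.16. The 11 dendritic cell genes averaged 1.08 to 1.41 in vehicle lungs and 1.25 to 1.34 at 162 µg of NRCWE-002, and 7 mature dendritic cell genes 0.56 to 0.76 and 0.67 to 0.75. None of these 18 dendritic cell genes was called at 162 µg on day 1.

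Lymphocyte and stromal markers bear on Cxcl13, Ccl19 and Ccr7. The 8 B cell genes averaged 0.49 to 0.85 in vehicle lungs of day 1 and 0.28 to 0.89 at 162 µg of NRCWE-002. The 7 T cell genes averaged 0.33 to 0.44 and 0.34 to 0.59, and 0 of these 15 genes were called in either particle at 162 µg on day 1. Of 7 genes of lymph node and lymphoid stroma, only Pdpn was called at 162 µg on day 1. It rose by 0.68 ± 0.14 after NRCWE-001 and by 0.58 ± 0.14 after NRCWE-002. Madcam1 and Glycam1, which mark lymph node vessels, were well above background on 35 and 15 arrays. Cr2 and Fcer2a of this list are also among the 8 B cell genes. A rise of 1 gene does not identify stroma. On day 28 at 162 µg of NRCWE-002 the 8 genes of monocytes and interstitial macrophages averaged 1.60 to 2.52, against 1.53 to 1.86 in vehicle lungs. The part of these cells in the values of the members was not tested.

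Some pairs of members varied together from mouse to mouse. After group means were removed, Ccl17 and Ccl24 correlated over 69 arrays with Pearson's r of 0.640 and Spearman's rho of 0.485 (permutation within groups, p = 8e-05 and 0.00072, adjusted over 28 pairs 0.000747 and 0.00672). Without the 2 arrays farthest from the median of Ccl17 the r was 0.543, and with slide means removed it was 0.648. Lungs high in one gene for their group thus tended to be high in the other.

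Ccl19 and Cxcl13, the lymphoid ligands, correlated with r of 0.623 and rho of 0.592 (permutation p = 1e-05 for both, the smallest that 100000 permutations can give, adjusted 0.00028). The r was 0.551 without the 2 farthest arrays and 0.614 with slide means removed. Ccl17 and Ccl22, ligands of the same receptor, had an r of 0.0474 and a rho of 0.0312 (permutation, adjusted p = 0.803 and 0.886). Of the 28 pairs, 16 had an r with an adjusted p below 0.05, and 3 of the 16 involve Ccl22, whose probe was at background on most arrays, with an r of 0.441 for Ccl11, 0.411 for Cxcl13 and 0.288 for Ccr7. The permutations took no account of slides, and no p was computed with slide means removed, where the r of the 16 ran from 0.184 (Ccl17 and Ccl19) to 0.648. Ccl19 and Ccr7, ligand and receptor, were among the 16 at an r of 0.484, which was 0.270 with slide means removed. No such count was made for pairs of other genes, so the 16 are not shown to be particular to the members.

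**Figure D4:**
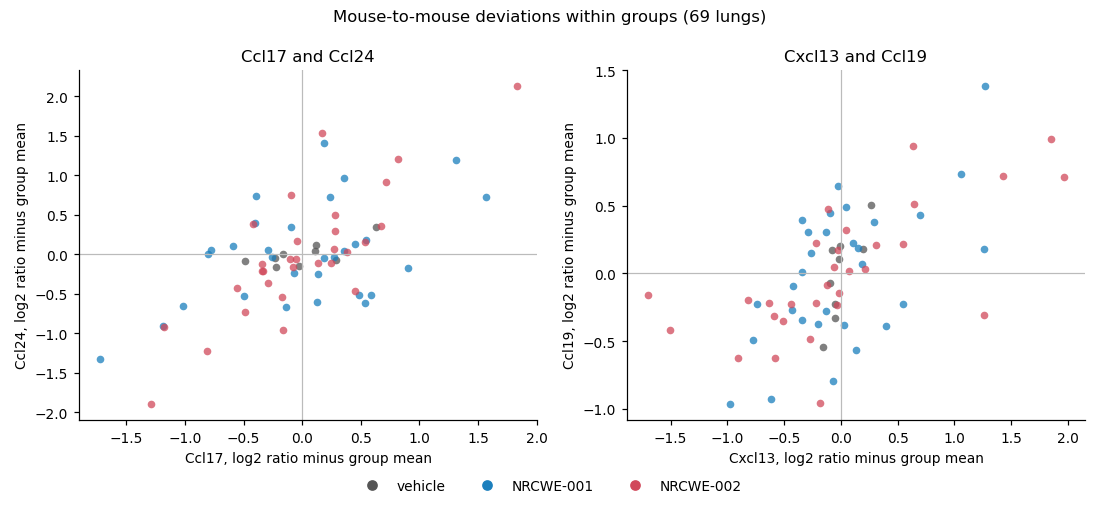
Deviation of each lung from its group mean, in log2 ratio units, for Ccl24 against Ccl17 (left) and for Ccl19 against Cxcl13 (right), 69 lungs coloured by particle. Lungs above their group mean in one gene of a pair tend to be above it in the other, with Pearson's r of 0.640 and 0.623.

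The genes whose deviations were most like those of each member were listed as a description, with r over 69 arrays that share slides. For Ccl17 they were F10, which encodes coagulation factor X (0.803), Mgl2, a lectin of alternatively activated macrophages and dendritic cells (0.790), and Slc26a4, an anion exchanger of airway epithelium (0.722). For Ccl24 they were Ocstamp (0.744), Dok2 (0.694) and Arg1, the arginase of alternatively activated macrophages (0.669). For Ccl11 they were Folr2 (0.693) and Clec10a (0.669), a folate receptor and a lectin of resident macrophages, and Apol6 (0.663).

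For Cxcl13 the closest genes were Ubd, a ubiquitin-like protein induced by interferon (0.795), Slamf8 (0.782) and Bfsp2 (0.779). For Ccl20 they were the interferon-induced chemokine Cxcl9 (0.661), Ddx58 (0.635) and Trim30d (0.614), and for Ccl19 Zmynd15 (0.772), Pglyrp1 (0.757) and Pirb (0.755). For Ccr7 they were P2ry10 (0.869), Ctsw (0.853) and Nkg7 (0.847), which are genes of lymphocytes. For Ccl22, at background, they were Gm9839 (0.584), Lgals12 (0.521) and Ifi205 (0.515).

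Against the marker lists, the deviations of Ccr7 followed mature dendritic cell (r = 0.76), lymph node and stroma (0.73), B cell (0.71) and T cell (0.667) genes. Those of Cxcl13 followed monocyte and interstitial macrophage (0.742), lymph node and stroma (0.725), B cell (0.694) and T cell (0.681) genes. Ccl17 followed neutrophil (0.569), dendritic cell (0.556) and alveolar macrophage (0.524) genes. Ccl24 had its highest r, 0.352, with neutrophil genes. With slide means removed these were 0.747, 0.436, 0.518 and 0.523 for Ccr7 and 0.723, 0.824, 0.688 and 0.692 for Cxcl13. They were 0.502, 0.424 and 0.504 for Ccl17, and 0.252 for Ccl24.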

How the data were processed

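RNA from a piece of lung of each of 69 mice was hybridised, in red, against Universal Mouse Reference RNA, in green, on 2-colour Agilent arrays, with no dye swap, so dye bias was not balanced. The deposited scanner files hold spot intensity, which the authors extracted with Agilent Feature Extraction. The authors also deposited a table of LOWESS-normalized log2 ratios. Column medians of that table lie near 0, and its direction, lung over reference, was checked against the scanner signals. The scanner values were the main setting here and the deposited table a named alternative, because detection and slide are read from the scanner files.

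Intensities were corrected with normexp (offset 50) and loess in limma 3.58.1 under R 4.3.3. Spots with a local background over 10 median absolute deviations were left out of the normexp fit. An earlier analysis of the same data had introduced that step after seeing how well the arrays matched the deposited table, and it was adopted here with its results known. A fit on all spots is among the alternatives. Of 41174 probes, 66.7% matched a gene symbol in RefSeq. Probes well above background in lung RNA on at least 4 of 69 arrays were kept, and a gene was the median of its probes, which gave 17628 genes. A single limma fit of 14 group means gave 27 comparisons, with Benjamini-Hochberg adjustment within each. Replicate numbers follow the order of deposit. Nothing states more than 1 mouse per array. The main fit had no term for slide or scan day, so its p-values mix the spread between mice with that between slides. Slides and scan days were tried as blocks, and with slide as a random block the correlation between arrays of a slide was 0.47. Array number and signal over background limit the precision. Correlations removed group means and used 100000 permutations within groups (Python 3.11.15, numpy 2.4.6). The fit was tested on simulated data with independent noise on each array, so the effect of shared slides on it was not tested.

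The members and gene lists were chosen with earlier results of these data known. All 8 members are named. Of each list the called genes are named, or the 2 with the lowest p, and for each member the 3 most correlated genes. Further list genes (Ccr4, Il4, Il13, Ccl2, Ccl7, Ccl21a and the markers) were named after their values were seen. The values of 1 list gene are not reported here. Promoter windows came from the RefSeq table of GRCm38.p6, which held 5 of 8 members. The array annotation names build mm9, and none of its coordinates is given. Other backgrounds, normalizations, filters, blocks and omissions of single arrays were tried.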

Additional observations from a re-analysis of the deposited data

Results flagged for a closer look

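In 112 sets of 4 or 5 lungs, 1 for each of the 8 members in each of the 14 groups, 7 held a lung far from the others by Dixon's test. That is 6.25%, and chance gives about 1 in 20. The sets share the same lungs and are not independent. The clearest for the comparisons was Ccl17 at 162 µg of NRCWE-001 on day 1, where replicate 5 was at 1.49 and the others at 3.40 to 4.12. At 162 µg of NRCWE-002 on day 1, replicate 5 had Ccl20 at 1.38 (others 0.47 to 0.64), and replicate 2 had Cxcl13 at 3.32 (others 0.65 to 1.35) and Ccl19 at 4.85 (others 3.37 to 3.77). Cxcl13 was also 2.64 in replicate 1 at 54 µg of NRCWE-002 on day 28 (others 0.63 to 1.1) and 0.55 in vehicle replicate 5 of day 1 (others 0.28 to 0.35). Ccl22 was 0.11 in vehicle replicate 4 of day 28, where it was not well above background.

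The change of Ccl11 at 18 µg of NRCWE-002 was higher on day 28 than on day 1 by 1.01 on the log2 scale, with lungs above the vehicle mean on one day and below it on the other. This difference was not tested.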

How the results depend on the processing

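Of 321 counts of members called, over 27 comparisons and 12 settings, 299 kept their value, and of 380 log2 fold changes at 162 µg, 342 kept their direction and side of the threshold. Most of the counts were 0 in the main setting, and a count can keep its value with another gene called. At 162 µg of NRCWE-002 on day 1 the count stayed at 1 on processed signals, with Ccl20 in place of Ccl17. At 162 µg of NRCWE-002 on day 1 the count was 1 (Ccl17), with 105 of all genes called in the main setting. It became 2 with Ccl20 on the deposited table, without background correction, with probes filtered at 35 arrays and in a fit of that day alone. Those fits called 104, 117, 109 and 480 genes. The count became 3, with Ccl20 and Ccl24, with slide as a random block (512 genes) or scan day as a block (787 genes). It became 0 with normexp on all spots (34 genes). Ccl17 was at 1.75 with adjusted p = 0.202 there and 0.0529 on processed signals. The dose effect of NRCWE-002 on day 1 called 1 member and 145 genes in all in the main setting. It called 2 members on processed signals (101 genes) and 0 with normexp on all spots (49 genes). It called 3 with a random slide block (Ccl11, Ccl17 and Ccl22, 503 genes) or that day alone (Ccl11, Ccl17 and Ccl20, 531 genes). Ccl22 was well above background on 4 of 69 arrays. With slide or scan day as a block, 162 µg and the dose effect of NRCWE-001 on day 1 went from 0 to 1 (Ccl17). So did 54 µg of NRCWE-002 on day 1. With slide fixed, slide random and scan day, all genes called numbered 772, 584 and 754 at 162 µg of NRCWE-001, beside 102 in the main setting. They numbered 1309, 1005 and 1162 for its dose effect. At 54 µg of NRCWE-002 they numbered 242, 193 and 137, beside 11. With a random slide block the dose effect of NRCWE-002 on day 28 went from 0 to 1 (Ccl24), among 7 genes in all. With median centring the particles on day 28 went from 0 to 2 (Cxcl13, Ccl11), with 4513 genes called in all. The causes were not tested.

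With 1 array left out, members called ran from 0 to 1 for the dose effect and 162 µg of NRCWE-001 on day 1, for the dose effect of NRCWE-002 on day 28 and between particles on day 28. The number of all genes called moved as well. Where 1 member was called, it was 299 for the dose effect and 290 for 162 µg of NRCWE-001. It was 4 for the dose effect of NRCWE-002 on day 28. Between particles on day 28 it ran from 999 to 1411, beside 837 in the main setting. Members called ran from 0 to 2 for the dose effect and 162 µg of NRCWE-002 on day 1, for 18 µg of NRCWE-002 on day 28 (2 without its replicate 3) and between particles at 18 µg on day 28. For the dose effect, all genes called numbered 52 to 87 with 0 members called and 178 or 265 with 2, beside 145 in the main setting. For 162 µg they numbered 24 to 67 and 210, beside 105. At 18 µg on day 28 with 2 members called they numbered 12 against vehicle and 55 between particles, beside 0 and 21.

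Some changes reversed in sign. For 162 µg of NRCWE-001 on day 1, Ccl22 was -0.01 (normexp on all spots), -0.06 and -0.03 (slide fixed and random) and -0.04 (scan day), Ccl19 was -0.29 (normexp on all spots), and Ccr7 was -0.15 (processed signals) and -0.33 (normexp on all spots). For NRCWE-002 on day 1, Ccl22 was -0.01 (deposited table and no background correction) and -0.17 (processed signals). For NRCWE-001 on day 28, Ccl22 was 0.04 (slide fixed) and 0.01 (scan day), Ccl11 -0.08 and Ccl24 -0.02 (processed signals), and Ccl24 -0.21, -0.15 and -0.02 (slide fixed, slide random, scan day). For NRCWE-002 on day 28, Ccl22 was 0 (deposited table), 0.18 (processed signals), 0.01 (no background correction) and 0.06 (median centring), Ccl24 -0.05 (median centring) and -0.01 (slide fixed), and Ccr7 -0.14 (processed signals). With 1 array left out, Ccl22 ran from -0.07 to 0.09 and Ccr7 from 0 to 0.21 for NRCWE-001 on day 1, Ccl22 from -0.05 to 0.07 for NRCWE-002 on day 1, Ccl22 from -0.08 to 0 and Ccl24 from -0.14 to 0.17 for NRCWE-001 on day 28, and Ccl17 from -0.11 to 0.09, Ccl22 from -0.03 to 0.05 and Ccr7 from -0.02 to 0.26 for NRCWE-002 on day 28.

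No paired analysis was possible because the labels give each mouse its own number and no number shared between groups, and lungs that shared a slide were compared through the slide block and within slides instead. Ccl22 and, in vehicle lungs, Ccl20 lie at background, so a lower level could not be seen.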
